A study of Mus musculus with 6 samples.

Results

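The mitochondrial genome of the mouse is a small circular DNA molecule, and its 37 annotated genes are those whose symbols begin with mt-. They encode 13 mRNAs, 22 tRNAs and 2 rRNAs. Members were the rows of a table of raw read counts with such a symbol, and 35 of its 49315 rows met this rule, namely all 13 mRNAs and all 22 tRNAs. The rRNA genes mt-Rnr1 and mt-Rnr2 were not analysed here.

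The KO group held 3 bone marrow libraries of miR-181a2b2-/- mice (replicates 2, 3 and 4), which lack the miR-181a2b2 microRNA locus. The WT group held 3 libraries of mice with the floxed, undeleted locus, miR-181a2b2flox/flox (flox) in the labels (replicates 1, 3 and 4). All animals were kept on the HFSC diet and had hindlimb ischemia, in which blood supply to a leg is cut off. The labels state no sex, age or Cre driver, and nothing shows that each library is a separate animal. The p-values therefore measure the spread between these libraries, which may be technical.

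Libraries were made by poly(A) selection and held between 33861440 and 40359093 counts. The precursor genes Mir181a-2 and Mir181b-2 had 0 counts in all 6 libraries, so these counts do not check the genotype. Xist, the RNA of the inactive X chromosome, had between 3 and 8 counts in KO replicates 3 and 4 and WT replicate 1, and between 140 and 225 in KO replicate 2 and WT replicates 3 and 4. The Y-linked gene Ddx3y had at least 2898 counts in every library. Of the 8 neutrophil, 8 erythroid, 8 B cell, 8 T and NK cell and 8 monocyte markers 0 were at 0 in all libraries. The same held for 10 skeletal muscle and 8 adipocyte markers, so this does not identify the tissue. Summed neutrophil markers, such as S100a8 and S100a9, lay between 61813 and 75577 CPM (counts per library total, on a common scale that allows for library composition) in KO libraries and between 41525 and 52149 CPM in WT libraries, without overlap. In bulk samples such as these, fewer cells of a type and less RNA per cell cannot be told apart.

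Mitochondrial DNA is copied into long RNAs from both strands, named heavy and light, and these are cut into single mRNAs, tRNAs and rRNAs, many of them at the tRNAs that lie between the coding genes. The mRNAs encode core subunits of the respiratory chain, which moves electrons to oxygen, and of the ATP synthase driven by it. All other subunits are encoded in the nucleus. Most animal mitochondrial mRNAs carry short poly(A) tails, so poly(A) selection retains those, whereas tRNAs are short and mostly lack such tails. How well each of the 13 mRNAs, mt-Nd6 among them, was retained was not tested.

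Stretches of mitochondrial DNA have been copied into the nuclear genome, and reads from such a stretch match both places. A pair of sequences shows an exact copy. The first 60 bases of mt-Co2 (GRCm38 with the GENCODE M21 annotation, chrM:7013-7072, plus strand), which encodes a cytochrome c oxidase subunit, were the same as the first 60 of Gm28661 (chr1:24615506-24615565, minus strand).
mt-Co2: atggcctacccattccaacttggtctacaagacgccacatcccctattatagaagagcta
Gm28661: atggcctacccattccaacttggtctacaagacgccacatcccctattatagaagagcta

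An inexact copy is shown by mt-Co1 (chrM:5351-5410, plus strand) and Gm13340 (chr2:22589565-22589624, minus strand), with the bases that differ in capitals.
mt-Co1: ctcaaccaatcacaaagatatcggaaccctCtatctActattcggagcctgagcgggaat
Gm13340: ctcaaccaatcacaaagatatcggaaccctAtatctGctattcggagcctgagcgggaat

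The results below turn on mt-Nd5 and its neighbours. The genes mt-Nd5 (chrM:13506-13565, plus strand) and mt-Nd6 (chrM:13552-13611, minus strand) end on opposite strands of the same 14 bases, given in capitals in the last 60 bases of each.
mt-Nd5: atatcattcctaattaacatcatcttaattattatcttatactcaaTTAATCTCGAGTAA
mt-Nd6: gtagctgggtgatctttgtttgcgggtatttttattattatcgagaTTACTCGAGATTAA

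Directly before mt-Nd5, with 0 bases between them, lies mt-Tl2 (chrM:11671-11741, plus strand), a leucine tRNA. It is shown with mt-Tl1 (chrM:2676-2750, plus strand), the other leucine tRNA, and with mt-Tp (chrM:15356-15422, minus strand, proline) and mt-Tn (chrM:5089-5159, minus strand, asparagine), which with mt-Tl1 had the most counts among tRNA genes. Capitals mark the anticodon, the bases that read the codon.
mt-Tl2: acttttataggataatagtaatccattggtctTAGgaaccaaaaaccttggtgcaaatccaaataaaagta
mt-Tl1: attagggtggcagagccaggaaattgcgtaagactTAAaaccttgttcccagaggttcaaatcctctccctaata
mt-Tp: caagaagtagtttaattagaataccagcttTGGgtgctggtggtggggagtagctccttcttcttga
mt-Tn: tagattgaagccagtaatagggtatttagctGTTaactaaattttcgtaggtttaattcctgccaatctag

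The mitochondrial genes took a smaller share of unscaled library counts in every KO library than in any WT library. Together they held 1.13%, 1.20% and 1.10% of counts in KO replicates 2, 3 and 4, and 1.45%, 1.28% and 1.25% in WT replicates 1, 3 and 4. The mean was 1.14% ± 0.0493 in KO libraries and 1.33% ± 0.108 in WT libraries (SD, n = 3 each), a difference of -0.186 percentage points and a ratio of 0.860. WT replicate 1 had the highest share, and without it the difference was -0.125 percentage points. These shares are of unscaled library totals. The factors that scale totals for CPM were between 0.948 and 0.995 in KO libraries and between 1.02 and 1.04 in WT libraries. In CPM this separation is lost, as KO replicate 3 then lies above WT replicate 4. For mt-Co1, the member with the most counts, KO replicate 3 had 5819 CPM and WT replicate 4 had 5727 CPM. A share on that scale was not tested. The exact two-sided permutation test on the unscaled shares gave p = 0.1, the smallest p that 3 against 3 libraries allow. Of 42 shares, ratios, marker sums and raw count sums tested in this way 22 did not overlap between groups, each with p = 0.1 and an adjusted p of 0.191 (exact permutation test). The raw count sums also follow library size. The raw sum of the tRNAs, for example, did not overlap, whereas their share of counts did.

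Nearly all of this share was mRNA. The 13 mRNAs made up between 99.5% and 99.6% of member counts in every library, and their share of all counts was 1.14% ± 0.0497 in KO libraries and 1.32% ± 0.108 in WT libraries (SD, n = 3 each). The 22 tRNAs held 0.00574%, 0.00422% and 0.00465% of counts in KO libraries and 0.00625%, 0.00511% and 0.00491% in WT libraries. These ranges overlapped (exact permutation test, p = 0.4).

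**Figure D1:**
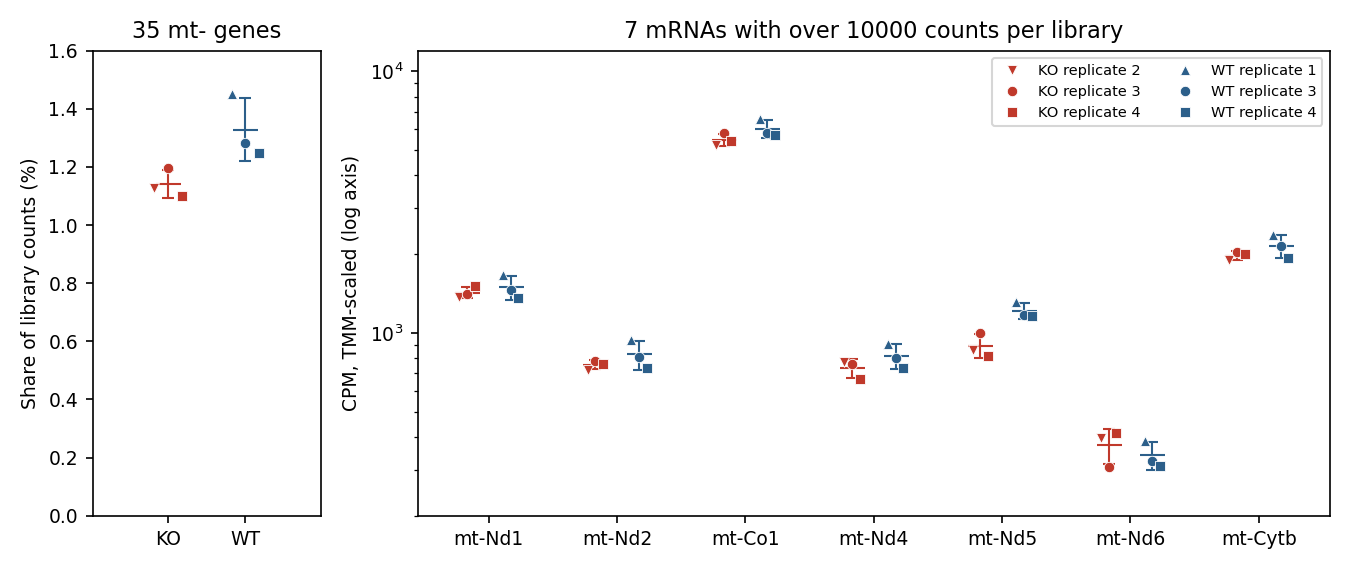
Left, the share of all counts, in percent, held by the 35 mt- genes in each library, KO left of WT. Right, CPM (log axis) of the 7 mRNAs with many counts. Points are libraries, long ticks are means and bars are SDs (n = 3 each). The KO libraries sit between 1.10% and 1.20% and the WT libraries between 1.25% and 1.45%, and of the 7 mRNAs mt-Nd5 alone has groups that do not overlap.

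Counts differed widely between members and by place on the molecule. The 7 mRNAs mt-Nd1, mt-Nd2, mt-Co1, mt-Nd4, mt-Nd5, mt-Nd6 and mt-Cytb, called abundant below, had between 11040 and 240286 counts per library. The other 6, mt-Co2, mt-Atp8, mt-Atp6, mt-Co3, mt-Nd3 and mt-Nd4l, had between 3 and 79. These 6 are neighbours, and the 5 tRNA genes in the same stretch, mt-Ts1, mt-Td, mt-Tk, mt-Tg and mt-Tr, had between 0 and 2 counts per library. The 17 tRNA genes elsewhere had between 0 and 811.

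Per kilobase of gene, mt-Co1, the catalytic subunit of cytochrome c oxidase (complex IV), was highest, at 3550 ± 196 CPM per kilobase in KO libraries and 3914 ± 312 in WT libraries (SD, n = 3 each). It was followed by mt-Cytb, the cytochrome b of complex III, with 1727 ± 64.7 CPM per kilobase in KO libraries and 1886 ± 190 in WT libraries. Next came mt-Nd1, a membrane subunit of complex I (NADH dehydrogenase), with 1491 ± 73.7 CPM per kilobase in KO libraries and 1559 ± 160 in WT libraries. The complex I subunits mt-Nd2, mt-Nd6, mt-Nd5 and mt-Nd4 had means over the 6 libraries between 562 and 763 CPM per kilobase. Within the KO group mt-Nd2 and mt-Nd6 differed by less than their SDs, as did mt-Nd5 and mt-Nd4. The 6 low mRNAs averaged between 0.560 and 2.84 CPM per kilobase. That was less than mt-Tp, the highest tRNA gene, at 285 CPM per kilobase over the 6 libraries.

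Of the 6 low mRNAs all but mt-Atp8 also occur nearly whole in nuclear transcripts. Cut into windows of 50 bases, mt-Co2 had 100% of its windows in annotated nuclear transcripts, mt-Co3 99.9%, mt-Atp6 99.5%, mt-Nd4l 98.8% and mt-Nd3 98.0%. Among the 7 abundant mRNAs the share was 62.2% for mt-Nd4, 51.1% for mt-Co1, 8.2% for mt-Nd2, 7.6% for mt-Nd5 and 0% for mt-Nd1, mt-Nd6 and mt-Cytb. It was also 0% for mt-Atp8 and for all tRNA genes, in a search of annotated transcripts and not of the whole genome. The nuclear genes with most of the shared windows were Gm13339 for mt-Nd2 and Gm4076 for mt-Nd5. On chromosome 2, Gm13340 was 97.61% identical to mt-Co1 and Gm13341 97.62% identical to mt-Co2 over the aligned bases. The 7 copies named next lie side by side on chromosome 1, minus strand, between 24611535 and 24616197. Gm28661, Gm10925, Gm28437 and Gm10222 were 100% identical to mt-Co2, mt-Atp6, mt-Co3 and mt-Nd4l over the aligned bases, and Gm28438 differed from mt-Nd3 at 1 base. Gm28439 matched the first 876 bases of mt-Nd4, and Gm29216 was 99.79% identical to mt-Co1 over 483 bases.

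These 7 genes on chromosome 1 had between 14 and 195 counts per library. Gm28438 had 117, 156 and 195 counts in KO libraries and 96, 192 and 147 in WT libraries, more in each library than mt-Nd3, which had 8, 6 and 10 in KO libraries and 8, 6 and 5 in WT libraries. The sources used here do not say how reads matching several places were counted, and its part in the low counts was not tested. Values of these 6 mRNAs and of their copies are therefore uncertain. So are those of mt-Co1 and mt-Nd4, which share over 50% of their windows with copies. Of copies outside chromosome 1, Gm8797 on chromosome 3 had between 41 and 55 counts per library and Gm10053 on chromosome 19 between 3 and 16. Gm28440 on chromosome Y had 0 in every library. On chromosome 2, Gm13340 had between 27 and 57 counts per library and Gm13341 between 25 and 56. The list of copies compared between genotypes held 9 genes, namely Gm8797, Gm10053, Gm28440 and the chromosome 1 copies other than Gm10222. It left out Gm10222, Gm13339, Gm13340, Gm13341 and Gm4076. Of the 9, 8 were tested, and the number that passed in either direction was 0 in edgeR, DESeq2 and limma alike (0 with p under 0.05 before adjustment). The smallest adjusted p in edgeR was that of Gm29216, with 38, 42 and 46 counts in KO libraries and 58, 49 and 77 in WT libraries (log2 fold change -0.42 ± 0.25 SE, adjusted p = 0.329). In CPM its groups overlapped.

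**Figure D2:**
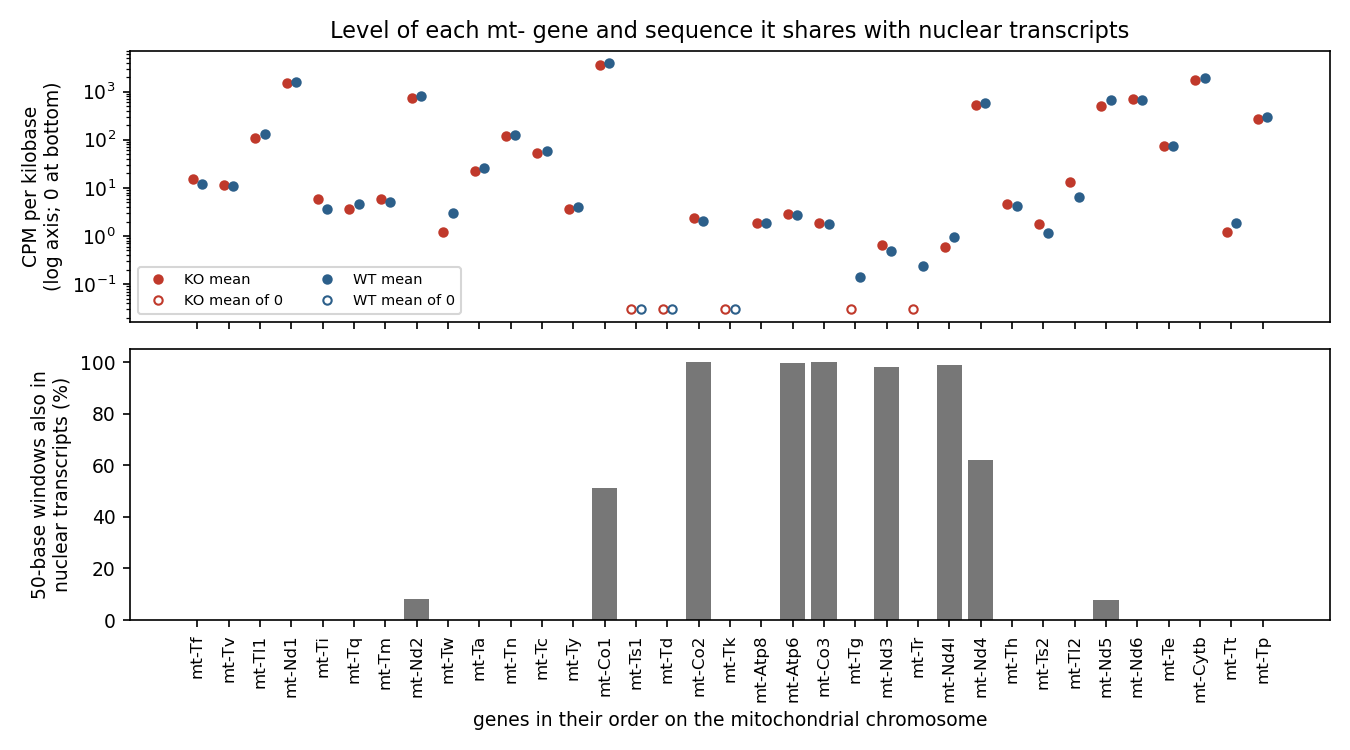
Top, mean CPM per kilobase (log axis, open circles at the bottom for 0) of each mt- gene in KO libraries (left point of each pair) and WT libraries (right point), in gene order. Bottom, the percentage of its 50-base windows found in annotated nuclear transcripts. The genes from mt-Co2 to mt-Nd4l lie under 3 CPM per kilobase, and 5 of the 6 mRNAs there share 98.0% or more of their windows with nuclear transcripts.

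Of the 11 mRNAs tested, mt-Nd5 had the log2 fold change farthest from 0 in edgeR. It encodes a large membrane subunit of complex I. Its level was 864, 1001 and 819 CPM in KO replicates 2, 3 and 4, and 1312, 1174 and 1163 CPM in WT replicates 1, 3 and 4. Every KO library lay below every WT library, and the mean of 894 ± 94.8 CPM in KO libraries was 1.36-fold lower than that of 1216 ± 83.3 CPM in WT libraries (SD, n = 3 each). In edgeR, fitted over all 16956 genes that passed the filter on low counts, the log2 fold change was -0.44 ± 0.11 (SE; 95% interval -0.70 to -0.19) with an adjusted p of 0.0711, which missed the threshold of 0.05.

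The call on mt-Nd5 depended on the method. The adjusted p was 0.00304 in DESeq2, 0.0443 in limma, 0.0487 in edgeR with library totals as the only scaling, 0.0257 in edgeR without a filter on low counts and 0.0467 without KO replicate 3, the KO library with the highest level. Over 14 alternatives it ranged from 0.00304 to 0.268, with log2 fold changes between -0.52 and -0.37.

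The other 5 abundant mRNAs of the heavy strand had log2 fold changes between -0.15 and -0.06, and none passed. mt-Co1, the main contributor to the mitochondrial share, had 5228, 5819 and 5406 CPM in KO libraries and 6602, 5813 and 5727 CPM in WT libraries (log2 fold change -0.14 ± 0.11 SE, edgeR adjusted p = 0.485). The high value was WT replicate 1, and the other 5 libraries overlapped. The same library was highest for mt-Cytb, with 1893, 2037 and 1996 CPM in KO libraries and 2377, 2155 and 1942 CPM in WT libraries (-0.13 ± 0.11, edgeR adjusted p = 0.524).

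The remaining complex I subunits overlapped as well. For mt-Nd1 the levels were 1372, 1403 and 1507 CPM in KO libraries and 1660, 1458 and 1359 CPM in WT libraries (log2 fold change -0.06 ± 0.11 SE). For mt-Nd2 they were 724, 783 and 761 CPM in KO libraries and 942, 808 and 734 CPM in WT libraries (-0.13 ± 0.12). WT replicate 1 again stood highest in both. For mt-Nd4 they were 776, 762 and 666 CPM in KO libraries and 910, 805 and 733 CPM in WT libraries (-0.15 ± 0.12, 95% interval -0.41 to 0.11).

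The light strand encodes a single mRNA, mt-Nd6, a further membrane subunit of complex I. It had 396, 308 and 413 CPM in KO libraries and 387, 325 and 310 CPM in WT libraries (log2 fold change 0.13 ± 0.14 SE, 95% interval -0.17 to 0.43, edgeR adjusted p = 0.596). It made up 3.52%, 2.54% and 3.57% of mitochondrial mRNA counts in KO libraries and 2.72%, 2.59% and 2.59% in WT libraries. KO replicates 2 and 4 were above the WT libraries and KO replicate 3 below them (exact permutation test, p = 0.4). Without KO replicate 3 the difference of 0.58 percentage points became 0.91. The sources used here do not say whether counting used the strand, so reads of mt-Nd6 and of the opposite strand at the same place cannot be told apart.

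Of the 6 low mRNAs, 4 passed the filter on low counts, and their log2 fold changes in edgeR lay between 0.00 for mt-Atp8 and 0.26 for mt-Co2, with adjusted p between 0.574 and 0.997. mt-Atp6 and mt-Atp8 encode ATP synthase subunits and overlap by 43 bases, so that their reads may be split. mt-Atp6 had 64, 71 and 79 counts in KO libraries and 71, 77 and 71 in WT libraries. mt-Co3, a complex IV subunit, had 34, 64 and 60 counts in KO libraries and 47, 65 and 52 in WT libraries. mt-Nd4l, a small complex I subunit that did not pass the filter, had 3, 8 and 8 counts in KO libraries and 8, 11 and 15 in WT libraries.

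**Figure D3:**
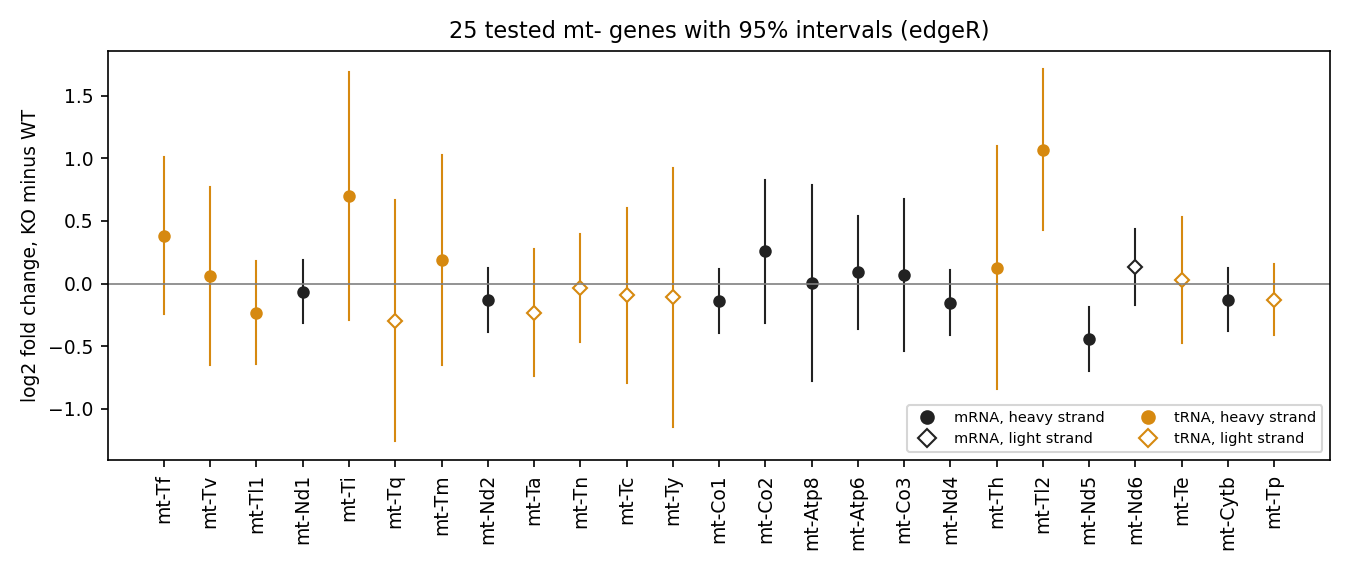
Log2 fold change (KO minus WT) with its 95% interval in edgeR for the 25 tested mt- genes, in gene order, by RNA class and strand. The intervals of mt-Nd5, at -0.44, and mt-Tl2, at 1.07, leave out 0, and the other 23 include it.

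Of the 35 members 25 passed the filter on low counts, 11 mRNAs and 14 tRNAs. At an adjusted p under 0.05 in edgeR 0 members were higher and 0 lower, against 0.938% and 1.52% of all genes tested. At an unadjusted p under 0.05 there was 1 higher member, mt-Tl2, and 1 lower, mt-Nd5, against 11.7% higher and 12.2% lower of all genes. The same pair were the tested members whose groups did not overlap, 1 with KO lower and 1 with KO higher, against 14.7% and 14.4% of all genes. DESeq2 called mt-Nd5 lower and 0 members higher, against a background of 6.03% lower and 6.59% higher. Limma called mt-Nd5 lower and mt-Tl2 higher, against 3.31% lower and 2.92% higher. The median log2 fold change was -0.06 over the 11 mRNAs, -0.14 over the 6 abundant heavy-strand mRNAs, -0.01 over the 14 tRNAs and -0.01 over all genes tested.

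The make-up of the mitochondrial mRNA also differed at mt-Nd5. Of the counts of the 7 abundant mRNAs, mt-Nd5 held 7.68%, 8.26% and 7.08% in KO libraries and 9.25%, 9.36% and 9.72% in WT libraries. The groups did not overlap, with means of 7.67% ± 0.592 in KO libraries and 9.44% ± 0.245 in WT libraries (SD, n = 3 each; exact permutation test, p = 0.1). The shares of the other 6 overlapped, with mt-Co1 at 47.1% ± 0.845 in KO libraries and 46.9% ± 0.816 in WT libraries. These shares do not depend on the scaling of the library.

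Ratios to other single mRNAs also differed between the groups. Like the share above, they reuse the counts of mt-Nd5, which was taken for its fold change, so they are no separate evidence. There were 1.11, 1.31 and 1.23 counts of mt-Nd5 per count of mt-Nd4 in KO libraries and 1.44, 1.46 and 1.59 in WT libraries. Per count of mt-Nd1, which shares no window with nuclear transcripts, there were 0.630, 0.713 and 0.543 in KO libraries and 0.791, 0.805 and 0.856 in WT libraries. The ratio of mt-Nd6 to mt-Nd5 was 0.459, 0.308 and 0.505 in KO libraries and 0.295, 0.277 and 0.267 in WT libraries. None of these ratios overlapped between groups, and KO replicate 3 was the KO library nearest to the WT group in each.

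**Figure D4:**
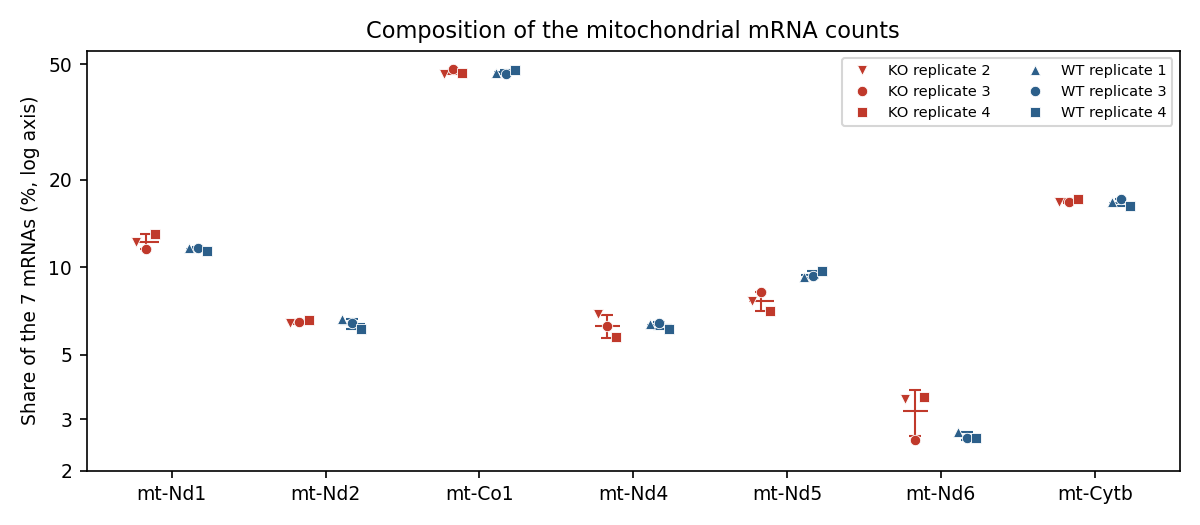
Percentage (log axis) of the counts of the 7 abundant mRNAs held by each, per library, KO left of WT, with means and SDs (n = 3 each). mt-Nd5 lies between 7.08% and 8.26% in KO libraries and between 9.25% and 9.72% in WT libraries, and the other 6 overlap.

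Of the 14 tRNA genes tested, mt-Tl2 had the log2 fold change farthest from 0 in edgeR. This gene, whose sequence adjoins the start of mt-Nd5, had 37, 31 and 34 counts in KO libraries and 18, 17 and 18 in WT libraries. The groups did not overlap, at 0.957 ± 0.124 CPM in KO libraries and 0.455 ± 0.0563 CPM in WT libraries (SD, n = 3 each), a ratio of 2.10. In edgeR the log2 fold change was 1.07 ± 0.29 (SE; 95% interval 0.43 to 1.71) with an adjusted p of 0.0761, and in limma the adjusted p was 0.0464. DESeq2 gave no adjusted p for this gene (log2 fold change 1.08, unadjusted p = 0.0134). Over the 12 alternatives with an adjusted p it ranged from 0.0464 to 0.231, and over all 13 that gave a value the log2 fold change lay between 0.97 and 1.17. Per 1000 counts of mt-Nd5 there were 1.27, 0.865 and 1.11 counts of mt-Tl2 in KO libraries and 0.396, 0.355 and 0.369 in WT libraries. This ratio sets the tested member with the highest log2 fold change over that with the lowest, so it is no separate evidence.

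The other tested tRNA genes had log2 fold changes between -0.30 for mt-Tq (glutamine) and 0.70 for mt-Ti (isoleucine), and none passed. mt-Tl1, the second leucine tRNA, had 322, 237 and 322 counts in KO libraries and 393, 402 and 332 in WT libraries (log2 fold change -0.23 ± 0.18 SE, edgeR adjusted p = 0.470). mt-Tp, with the most counts of any tRNA gene, had 668, 627 and 654 in KO libraries and 811, 735 and 773 in WT libraries (-0.13 ± 0.13, edgeR adjusted p = 0.570). mt-Tn had 382, 242 and 279 in KO libraries and 312, 347 and 363 in WT libraries, with both its highest and its lowest value in the KO group. mt-Te (glutamate) had 205, 154 and 183 counts in KO libraries and 217, 206 and 155 in WT libraries, and mt-Tc (cysteine) 151, 82 and 145 in KO libraries and 185, 112 and 138 in WT libraries. Both overlapped.

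The other tested tRNA genes had low counts. mt-Ta (alanine) lay between 46 and 77 per library, mt-Tf (phenylalanine) between 27 and 49 and mt-Tv (valine) between 22 and 38, while mt-Ti, mt-Tq, mt-Tm (methionine), mt-Ty (tyrosine) and mt-Th (histidine) had 19 or fewer. mt-Tw (tryptophan), which did not pass the filter, had 0, 1 and 8 counts in KO libraries and 10, 5 and 8 in WT libraries. In every library 3 tRNA genes, mt-Ts1, mt-Td and mt-Tk, had 0 counts, which allows up to between 0.0743 and 0.0886 CPM (3 counts, counting error only). The 8 tRNA genes of the light strand held 76.0%, 76.6% and 72.7% of tRNA counts in KO libraries and 75.9%, 73.3% and 76.9% in WT libraries.

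Respiratory chain mRNAs encoded in the nucleus had mostly positive log2 fold changes. Of the complex I subunits 37 were tested, 2 rose and 0 fell, against 0.938% higher and 1.52% lower of all genes, and 36 had a positive log2 fold change with a median of 0.31, against 48.9% positive and a median of -0.01 over all genes. Ndufb11, an accessory membrane subunit, had 104, 95.7 and 116 CPM in KO libraries and 80.5, 71.0 and 76.5 CPM in WT libraries (log2 fold change 0.47 ± 0.10 SE, edgeR adjusted p = 0.0438). Ndufa1, another accessory subunit, had 35.1, 34.7 and 39.8 CPM in KO libraries and 28.7, 26.6 and 26.2 CPM in WT libraries (0.43 ± 0.09, edgeR adjusted p = 0.0491). Leaving out WT replicate 1, 3 or 4 or KO replicate 2 or 4 ended both calls, with edgeR adjusted p between 0.0519 and 0.185. So did scaling by library totals, at 0.0518 for Ndufb11 and 0.0611 for Ndufa1, and the replicate block ended that of Ndufa1 (0.0621).

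In complexes III, IV and V none of the 9, 11 and 16 tested nuclear subunits passed in edgeR, and all had positive log2 fold changes, with medians of 0.30, 0.38 and 0.26. Before adjustment 5, 10 and 10 of them were higher at p under 0.05, against 11.7% of all genes. DESeq2 called 2, 8 and 5 higher, against 6.59%, and limma called 1, 3 and 4 higher, against 2.92%. Examples are Uqcr10 of complex III, with 48.8 ± 7.52 CPM in KO libraries and 36.4 ± 2.44 CPM in WT libraries, and Cox6c of complex IV, with 111 ± 12.8 CPM in KO libraries and 82.9 ± 6.35 CPM in WT libraries (SD, n = 3 each; edgeR adjusted p = 0.0809 and 0.0655). Uqcrb of complex III had 73.2 ± 12.8 CPM in KO libraries and 54.4 ± 4.77 CPM in WT libraries, and Cox7a2 of complex IV had 82.4 ± 9.18 CPM in KO libraries and 61.4 ± 6.46 CPM in WT libraries. In complex V Atp5e had 107 ± 19.1 CPM in KO libraries and 76.6 ± 4.24 CPM in WT libraries, and Atp5l had 120 ± 16.5 CPM in KO libraries and 90.1 ± 3.87 CPM in WT libraries (edgeR adjusted p = 0.0671 and 0.0713). KO replicate 4 was the highest library for each of these 6 genes.

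Set against their nuclear partners, the mitochondrial mRNAs were lower in every KO library. For complex I there were 2.10, 2.27 and 1.79 counts of the 5 abundant mt-Nd mRNAs per count of nuclear subunits in KO libraries and 2.90, 2.82 and 2.65 in WT libraries. For complex III the ratio of mt-Cytb to nuclear subunits was 2.60, 2.79 and 2.28 in KO libraries and 3.29, 3.43 and 3.01 in WT libraries. For complex IV the ratio of mt-Co1 to nuclear subunits was 4.04, 4.76 and 3.57 in KO libraries and 5.76, 5.67 and 5.57 in WT libraries. None of the 3 ratios overlapped between groups (exact permutation test, p = 0.1 each). For complex I the mitochondrial term held 0.408% ± 0.0123 of counts in KO libraries and 0.481% ± 0.0440 in WT libraries, and the nuclear term 0.200% ± 0.0183 in KO libraries and 0.172% ± 0.00935 in WT libraries, both without overlap. For complex III the mitochondrial term did not overlap, at 0.193% ± 0.00672 in KO libraries and 0.221% ± 0.0201 in WT libraries, whereas the nuclear term did, at 0.0757% ± 0.00638 in KO libraries and 0.0682% ± 0.00486 in WT libraries (exact permutation test, p = 0.3). For complex IV neither term overlapped, the mitochondrial term holding 0.535% ± 0.0327 of counts in KO libraries and 0.620% ± 0.0454 in WT libraries and the nuclear term 0.131% ± 0.0118 in KO libraries and 0.109% ± 0.00654 in WT libraries (SD, n = 3 each). All these terms are shares of unscaled library totals. In CPM, mt-Cytb and mt-Co1 overlapped between groups, as given above. The nuclear term of complex III no longer did so in CPM, by a narrow margin, and a difference on that scale was not tested. Summed neutrophil markers were higher in every KO library, and so were summed monocyte and macrophage markers, at 1627 to 1924 CPM in KO libraries and 1345 to 1555 CPM in WT libraries. All 8 neutrophil markers had positive log2 fold changes, and 3 were called higher in edgeR, against 0.938% of all genes. Of the 8 monocyte and macrophage markers 5 were positive and 3 negative. In edgeR 1 of them was called higher and 1 lower, against 0.938% and 1.52% of all genes. Summed T and NK cell markers were between 114 and 134 CPM in KO libraries and between 94.2 and 114 CPM in WT libraries, and the erythroid and B cell sums overlapped. For T and NK cells the lowest KO library had 114.43 CPM and the highest WT library 114.37. Of these T and NK markers 4 had positive and 4 negative log2 fold changes. All 8 erythroid and all 8 B cell markers had negative log2 fold changes, with medians of -0.39 and -0.71 and 0 called in edgeR. With the replicate block 8 of the 8 B cell markers were called lower, against 359 of all 16956 genes tested. Without KO replicate 2 it was 7, against 366 of 17379. The block compares genotypes only within replicate numbers 3 and 4, as number 1 is WT only and number 2 KO only. It thus also leaves KO replicate 2 out of that comparison. Skeletal muscle markers summed to between 10.5 and 16.4 CPM in KO libraries and between 14.0 and 21.1 CPM in WT libraries. All 6 tested had negative log2 fold changes, with a median of -1.02. In edgeR 1 was called lower, Tnnt3, against 1.52% of all genes. The part of these cell types in the ratios and in the mitochondrial share was not tested.

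**Figure D5:**
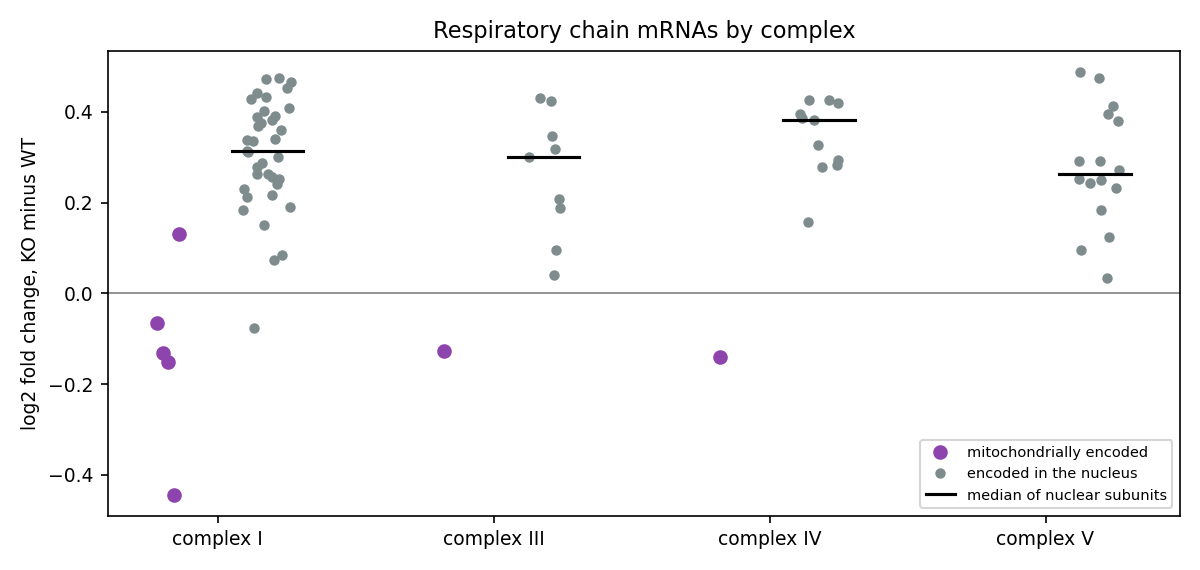
Log2 fold change (KO minus WT, edgeR) of respiratory chain mRNAs by complex, with the abundant mitochondrially encoded mRNAs at the left of each complex and the nuclear subunits at its right, black lines being their medians. The mitochondrial mRNAs lie between -0.44 and 0.13, and the nuclear medians between 0.26 and 0.38.

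The mitochondrial ribosome, which translates the 13 mRNAs and whose proteins are all encoded in the nucleus, had 78 tested members with a median log2 fold change of 0.21, and 72 were positive. In edgeR 0 passed, with 25 higher at p under 0.05 before adjustment, against 11.7% of all genes. DESeq2 and limma each called 1 of the 78 higher, against 6.59% and 2.92% of all genes. Mrpl33, of the large subunit, had 97.3, 91.7 and 116 CPM in KO libraries and 69.0, 78.4 and 72.5 CPM in WT libraries (edgeR adjusted p = 0.0504). Mrps15, of the small subunit, had 43.7 ± 3.73 CPM in KO libraries and 35.1 ± 2.02 CPM in WT libraries (SD, n = 3 each; edgeR adjusted p = 0.0951).

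Genes that copy, transcribe and process mitochondrial nucleic acids had medians between -0.06 and 0.10. Of 9 genes of mitochondrial transcription 0 passed in edgeR, 1 was higher in DESeq2 (against 6.59% of all genes) and 0 in limma, and the median was 0.10. Before adjustment 2 were higher at p under 0.05 in edgeR, against 11.7% of all genes. Mterf4, of the family of mitochondrial transcription termination factors, had 14.3, 12.3 and 13.7 CPM in KO libraries and 9.62, 9.86 and 10.2 CPM in WT libraries (log2 fold change 0.44 ± 0.12 SE, edgeR adjusted p = 0.0731), and Mterf1a had 5.93 ± 0.278 CPM in KO libraries and 4.25 ± 0.810 CPM in WT libraries. Polrmt, the mitochondrial RNA polymerase, had 18.2 ± 0.792 CPM in KO libraries and 19.1 ± 0.936 CPM in WT libraries, and Tfam, which packages mitochondrial DNA and starts its transcription, had 33.6 ± 2.59 CPM in KO libraries and 31.7 ± 2.96 CPM in WT libraries. These last 2 were chosen for their roles after their values were seen.

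RNA cleavage, tailing and decay had 18 tested members, with a median of -0.01. Of these 0 passed in edgeR and limma and 1 was higher in DESeq2, against 6.59% of all genes. Before adjustment 1 was higher and 2 were lower at p under 0.05 in edgeR, against 11.7% and 12.2% of all genes. Hsd17b10, a subunit of the RNase P that cuts mitochondrial tRNAs out, had 40.5 ± 5.04 CPM in KO libraries and 31.4 ± 2.77 CPM in WT libraries (SD, n = 3 each; log2 fold change 0.37 ± 0.11 SE). Lrpprc, which binds and stabilises mitochondrial mRNAs, had 55.3, 62.3 and 64.7 CPM in KO libraries and 79.8, 66.3 and 70.0 CPM in WT libraries (edgeR adjusted p = 0.172). Neither gene's groups overlapped, Hsd17b10 being higher and Lrpprc lower in each KO library.

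Replication and nucleotide supply (12 tested, median 0.04), tRNA and rRNA modification (19 tested, median 0.01) and the aminoacyl-tRNA synthetases that charge the tRNAs (22 tested, median -0.06) had 0 members past the threshold in edgeR, DESeq2 and limma. Before adjustment 0 were higher in each list, and 1, 1 and 2 were lower at p under 0.05 in edgeR, against 11.7% higher and 12.2% lower of all genes. The members with the smallest p were Primpol, a primase-polymerase, and Rrm2b, a ribonucleotide reductase subunit, for replication, Nsun3, an RNA methyltransferase, and Cdk5rap1 for modification, and Iars2, the isoleucyl-tRNA synthetase, and Gatc for charging. Iars2 had 52.9 ± 1.48 CPM in KO libraries and 61.8 ± 3.60 CPM in WT libraries (SD, n = 3 each; edgeR adjusted p = 0.137). Cdk5rap1 had 25.6, 4.33 and 20.9 CPM in KO libraries and 8.84, 6.38 and 5.70 CPM in WT libraries, KO replicate 3 lying below the WT libraries.

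Biogenesis regulators, which control the making of new mitochondria, had 13 tested members with a median of 0.02. In edgeR 0 passed (2 lower at p under 0.05 before adjustment, against 12.2% of all genes). DESeq2 and limma each called 1 lower, against 6.03% and 3.31% of all genes. The members with the smallest p in edgeR were Pprc1, a coactivator of the PGC-1 family, with 36.4, 45.6 and 41.7 CPM in KO libraries and 65.1, 50.4 and 55.4 CPM in WT libraries (log2 fold change -0.47 ± 0.12 SE, edgeR adjusted p = 0.0688), and its relative Ppargc1b, with 2.40, 2.90 and 2.56 CPM in KO libraries and 4.71, 3.78 and 3.36 CPM in WT libraries (-0.59 ± 0.20, edgeR adjusted p = 0.122). In both every KO library lay below every WT library.

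Of 18 tested genes of mitophagy, the removal of damaged mitochondria, and of mitochondrial stress, 1 fell and 0 rose, against 1.52% lower and 0.938% higher of all genes, and the median was -0.02. Optn, a mitophagy receptor, had 62.4, 59.7 and 59.0 CPM in KO libraries and 82.4, 75.3 and 75.8 CPM in WT libraries (log2 fold change -0.37 ± 0.08 SE, edgeR adjusted p = 0.0474). The call was lost whichever of the 6 libraries was left out, with adjusted p between 0.0550 and 0.185, and with the replicate number as a block (adjusted p = 0.126).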

How the data were processed

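The authors deposited raw counts of reads per gene for 6 libraries made by poly(A) selection. The submitters' processing notes name GRCm38, STAR 2.5.2b, Subread 1.5.2 with featureCounts, and Trimmomatic 0.36. Their order, settings, annotation, use of strand and handling of multiply matching reads were not given in the sources used here. Bone marrow is the source in the labels, but their extraction text names white adipose tissue. Summed adipocyte markers lay between 24.8 and 40.8 CPM in KO libraries and between 17.2 and 27.1 CPM in WT libraries.

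Symbols, positions and sequences came from GENCODE M21 (GRCm38), which gave a symbol to 49056 of 49315 identifiers. Counts were tested with edgeR 4.0.16 (R 4.3.3; TMM scaling, filterByExpr by group, robust quasi-likelihood test, two-sided, Benjamini-Hochberg adjustment over all genes, threshold 0.05), after a check on simulated counts. TMM factors lay between 0.948 and 1.04. For CPM, counts were divided by the product of library total and factor. Shares, ratios, marker sums and raw count sums were compared with an exact permutation test (SciPy 1.17.1), adjusted over 42 measures. Intervals are 95% intervals of the fit. Replicates differed beyond sampling noise (chi-square per gene between 29.9 and 81.6). Alternatives were other scalings and filters, DESeq2 1.42.0, limma 3.58.1 with sample quality weights, a replicate block, each library left out, and other denominators.

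The members and lists were chosen with earlier results of these data known. Named genes were all mRNA members, tested tRNA members, and from each nuclear list the members past the threshold or, where none passed, the 2 with the smallest p. mt-Rnr1 and mt-Rnr2 were not analysed here.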

Additional observations from a re-analysis of the deposited data

How the results depend on the processing

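The difference in the mitochondrial share of counts kept its direction with each library left out, from -0.226 to -0.125 percentage points, and so did those of the mRNA share (-0.225 to -0.124), the tRNA share (-0.000987 to -0.000139) and the mt-Nd6 share of mRNA (0.397 to 0.911). With only the members that have under 10% of their windows in nuclear transcripts, an alternative chosen after seeing the data that leaves out mt-Co1 and mt-Nd4, they were -0.0898 for all members, -0.0892 for mRNA and 1.24 for mt-Nd6. The base is smaller there, as mt-Co1 and mt-Nd4 held 47.1% and 6.31% of the counts of the 7 abundant mRNAs in KO libraries. In WT libraries they held 46.9% and 6.32%. These differences are thus not comparable in size with those over all members. Members lower numbered 1 (mt-Nd5) with library totals, without a filter, in DESeq2, in limma and without KO replicate 3 (0 to 1 over libraries left out), and members higher 1 (mt-Tl2) in limma and 0 over libraries left out. Genes called higher and lower over the whole table numbered 87 and 403 with library totals, 653 and 839 without a filter, 857 and 784 in DESeq2 and 495 and 562 in limma. Leaving out single libraries gave 6 to 316 higher and 23 to 604 lower, the most without KO replicate 3. Calls in the nuclear lists numbered 3 in all, 35 without a filter, 33 in DESeq2, 20 in limma and 9 with the replicate block, and 0 to 16 over libraries left out, with 0 without WT replicate 1, 3 or 4 or KO replicate 4. The median log2 fold change of member mRNAs was -0.13 to -0.04 with libraries left out and 0.0036 with the replicate block. mt-Nd1 turned to 0.047 and mt-Nd2 to 0.0036 with the block, and mt-Nd1 to 0.019 without WT replicate 1. The causes of these changes were not tested. Same-numbered libraries deviated together for number 3 (r = 0.274 across genes) and not for number 4 (r = -0.234), so the numbers were not taken as pairs. The rRNA share and the ratio of rRNA to mRNA were planned and not run. Counts of 19 or fewer per library limit the precision of most tRNA genes and of mt-Atp8, mt-Nd3 and mt-Nd4l.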
